A study of Mus musculus with 6 samples.

Results

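The receptors of the ErbB family, the growth factors that bind them and 2 of their inhibitors were followed in RNA-seq of mouse liver. The 10 genes were *Egfr*, *Erbb2* and *Erbb3* (receptors), *Egf*, *Areg*, *Hbegf*, *Tgfa* and *Btc* (ligands), and *Errfi1* and *Lrig1* (inhibitors), out of 31950 genes in the table. They were found by name, and they were selected on their roles and on the difference between WT and mutant livers in these same values. Their levels are therefore given as a description, with no test, and nothing is supported with them.

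ErbB receptors are cell surface tyrosine kinases that pair with each other when a ligand of the EGF family binds, phosphorylate one another's tails and start the RAS-ERK and PI3K-AKT cascades. The ligands are made as membrane-bound precursors and are released by proteases such as ADAM17, while ERRFI1, LRIG1 and ubiquitin ligases of the CBL family end the signal. In the liver, EGFR is known as a receptor through which hepatocytes are driven to divide after tissue loss.

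Livers came from 3 WT mice and 3 β-cateninΔ(ex3)/+ mice, all C57BL/6 and labelled as 8 weeks old. The mutant mice carry 1 allele of β-catenin (*Ctnnb1*) that has lost exon 3, which holds the residues whose phosphorylation marks the protein for destruction, next to 1 normal allele. The study's methods describe deletion by a tamoxifen-induced Cre under the albumin promoter, which acts in hepatocytes, and by an adenovirus carrying Cre. Its results also describe mice with a plain albumin Cre, which died within weeks of birth. For livers the study uses the name β-cateninΔ(ex3)/+ with the tamoxifen mice, but its RNA-seq methods do not name the Cre. Whether the WT mice received tamoxifen is not given in the sources used here. The deposited values are FPKM (fragments per kilobase of transcript, relative to all mapped fragments), a scale per length on which genes can be compared with each other. From the steps between low values, the WT libraries were estimated to hold 24.8, 24.6 and 24.5 M fragments, and the β-cateninΔ(ex3)/+ libraries 19.1, 17.0 and 19.6 M. The level of *Ctnnb1* was 25.9, 28.0 and 27.3 FPKM in the WT livers and 25.4, 25.2 and 25.04 FPKM in the mutant livers, a sum over the whole gene from which the loss of an exon cannot be read. *Glul*, glutamine synthetase and a known target of β-catenin in hepatocytes, had 103.2 ± 1.25 FPKM in WT and 625.9 ± 7.13 FPKM (SD, n = 3) in mutant livers.

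The groups also stood apart in genes of sex and of age. *Xist*, the transcript of the inactive X chromosome, was at 20.3, 22.2 and 21.1 FPKM in WT livers and at 0.0146, 0 and 0.0128 FPKM in mutant livers. The 4 Y-linked genes *Ddx3y*, *Eif2s3y*, *Uty* and *Kdm5d* summed to 0.0428, 0 and 0 FPKM in WT and to 17.2, 16.3 and 16.6 FPKM in mutant livers, with *Eif2s3y* the most abundant. Genes were called higher or lower past 2 thresholds, a limma adjusted p under 0.05 and a fold of at least 2. Of 8 male-biased liver genes, 7 were higher in the mutants and 0 lower, and their sum was 26.7 to 31.2 FPKM in WT and 378.9 to 423.7 FPKM in mutant livers, with *Cyp2d9* highest in WT and *Cyp7b1* with the highest mean in the mutants. Of these 7, 4 reached the limit of 0.5 FPKM for testing through the mutants alone. Female-biased genes were split, with 2 of 10 higher and 5 lower and sums of 236.0 to 249.4 and 250.8 to 259.5 FPKM. *Cyp2b9*, *Cyp2b13* and *Cux2* were among those lower in the mutants, whereas *Sult3a1* was listed at 0 in the 3 WT livers and at 142.4, 143.2 and 140.8 FPKM in the mutants. Of these 4 genes, *Cux2* reached the limit through the WT livers alone and *Sult3a1* through the mutants alone. Of 10 genes of the fetal and young liver, 8 were lower and 0 higher in the mutants, and their sum was 3836 to 3903 FPKM in WT and 5.34 to 6.04 FPKM in mutant livers. Of these 8, 5 reached the limit through the WT livers alone. Over the 13243 genes tested the shares higher and lower were 8.17% and 4.52%, and 232 of the 1082 higher and 189 of the 598 lower reached the limit through 1 group alone. *H19*, the most abundant of the young-liver genes in WT, had 2320, 2374 and 2364 FPKM in WT and 0.0107, 0.0480 and 0.0192 FPKM in mutant livers, and *Afp*, the most abundant in the mutants, had 607.6 ± 5.94 and 2.55 ± 0.226 FPKM (SD, n = 3). Of 10 genes that rise after weaning, 6 were higher and 0 lower in the mutants, with sums of 444.1 to 453.0 and 2221 to 2292 FPKM. *Cyp1a2*, among these 6, is also counted below among the pericentral genes and β-catenin targets. Of these 6, 2 (*Mup20*, also among the male-biased genes, and *Obp2a*) reached the limit through the mutants alone. *Cyp3a11*, short of a fold of 2, was the most abundant of the 10 in WT and *Mup3* in the mutants, the latter with 0.845, 0.266 and 0.718 FPKM in WT and 793.3, 812.8 and 828.6 FPKM in mutant livers. *Mup*, *Cyp2* and *Cyp4a12* genes have near-identical copies, so their single values are uncertain. The sex of the mice is not given in the sources used here. By *Xist* and the Y-linked genes, the WT livers had the pattern of females and the mutant livers that of males. The age on the labels is the same for both groups. Sex, and whatever sets the genes of the young liver apart, cannot be told apart from genotype here, and their part in each difference below was not tested.

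Of the 10 genes, 6 reached a mean of 0.5 FPKM over the 6 livers and 4 ligands (*Egf*, *Areg*, *Hbegf* and *Btc*) did not. *Erbb2* passed at a mean of 0.527 FPKM and only through the WT livers, where it is higher. *Hbegf* was the highest of the genes below the limit, at 0.346 FPKM. The WT and mutant values of 5 of the 6 genes above the limit did not overlap, beside 66.0% of all genes tested. This count comes from the values that chose the genes and is not read as a result.

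**Figure D1:**
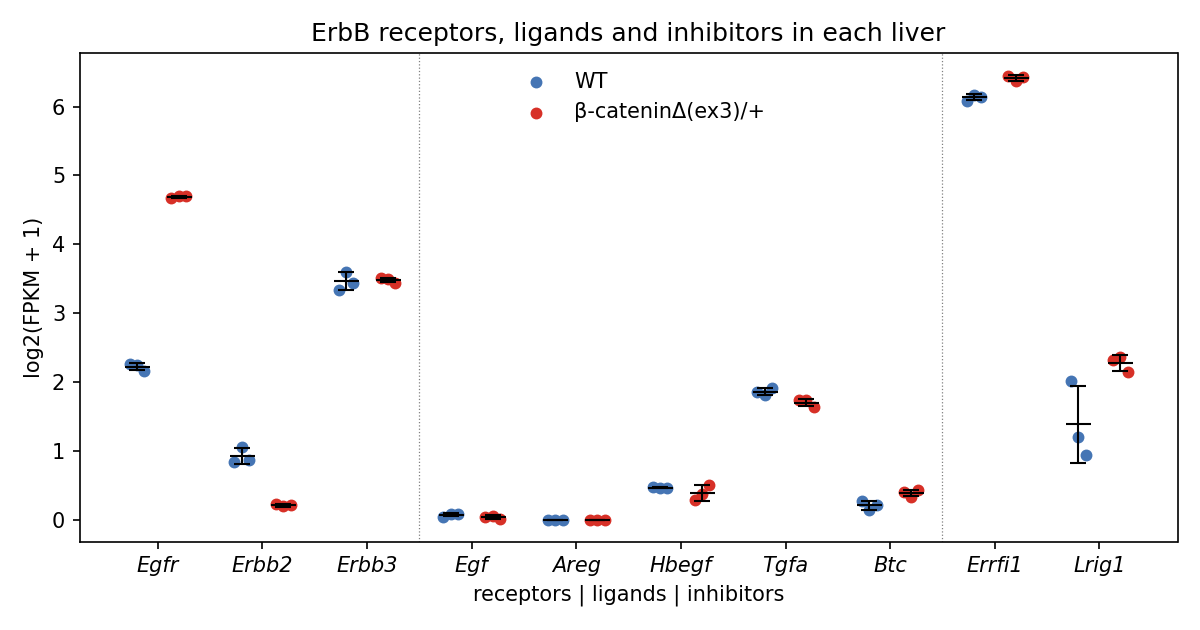
Level of each gene on the log2(FPKM + 1) scale in the 3 WT (blue) and 3 β-cateninΔ(ex3)/+ livers (red); points are livers, and the horizontal lines and bars are the mean and SD of 3 livers. *Egfr* stands at 24.8 FPKM in the mutants against 3.68 FPKM in WT, *Erbb2* is lower in the mutants, *Erbb3* overlaps, and *Areg* is listed at 0 in every liver.

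*Egfr* (ENSMUSG00000020122, chr11:16752203-16918158, GRCm38, plus strand) encodes the receptor of EGF, TGFα, amphiregulin, betacellulin and HB-EGF. WT replicates 1 to 3 had 3.80, 3.74 and 3.49 FPKM, and β-cateninΔ(ex3)/+ replicates 1 to 3 had 24.5, 25.0 and 24.9 FPKM. The WT livers were low and the mutant livers high, with no overlap and little spread inside either group. The mean was 3.68 ± 0.166 FPKM in WT and 24.8 ± 0.254 FPKM (SD, n = 3) in the mutants, 6.75 times as high. On the log2(FPKM + 1) scale, which understates the change of genes with low FPKM, the difference was 2.47 (standard error 0.046), and it was 2.44 to 2.48 when 1 liver was left out. The median of all genes tested was itself 0.14 above 0, and scaling that brought it to about 0 left *Egfr* at 2.29 with median ratios and 2.22 with quantiles. In the order of log2 fold changes over the 13243 genes, *Egfr* was number 218 from the top. RNA came from whole liver, in which the number of cells of a type and the RNA per cell cannot be told apart.

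*Erbb2* (ENSMUSG00000062312, chr11:98412470-98437716, plus strand) encodes the member that has no known ligand of its own and acts as a partner of the others. Its level was 0.790, 1.08 and 0.827 FPKM in the WT livers and 0.170, 0.141 and 0.154 FPKM in the mutant livers. All 3 mutant livers lay below all WT livers, and both groups were low beside *Egfr*. The means were 0.900 ± 0.159 and 0.155 ± 0.0141 FPKM (SD, n = 3), so WT was 5.80 times as high on the FPKM scale. With a pseudocount of 1 this became a log2 difference of -0.71 (standard error 0.078), short of a fold of 2, and with a pseudocount of 0.1 it was -1.96. The last 9 bases of *Erbb2* overlap *Mien1* on the other strand, which had 47.1 to 52.4 FPKM in WT and 64.3 to 69.4 FPKM in the mutants; the library marked the strand, but whether the authors' estimates used it is not given in the sources used here.

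*Erbb3* (ENSMUSG00000018166, chr10:128567523-128589652, minus strand) encodes a neuregulin receptor with a weak kinase that signals through its partners and recruits PI3K. It had 9.15, 11.2 and 9.85 FPKM in WT and 10.4, 10.3 and 9.88 FPKM in mutant livers. The mutant values fell inside the WT range. The means were 10.05 ± 1.02 and 10.2 ± 0.256 FPKM (SD, n = 3), and the log2 difference of 0.018 (standard error 0.075) became -0.17 with median-ratio scaling and -0.25 with quantile normalization. *Erbb4*, the remaining neuregulin receptor, had 0.137, 0.111 and 0.0941 FPKM in WT and was listed at 0 in the 3 mutant livers. Listed values of 0 were not seen in any liver for 84 ribosomal protein genes and other genes used by every cell, but a low gene at 0 may still hold transcripts below the depth reached.

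The order of the receptors thus differed between the groups. In WT livers *Erbb3* was the most abundant, followed by *Egfr*, *Erbb2* and *Erbb4*, and no neighbours in this order overlapped between livers. In mutant livers *Egfr* came first, then *Erbb3* and, far below, *Erbb2*. The 4 receptors summed to 14.7 ± 1.18 FPKM in WT and 35.1 ± 0.201 FPKM (SD, n = 3) in the mutants. *Egfr* made up 27.4%, 23.2% and 24.5% of this sum in the WT livers and 69.9%, 70.6% and 71.3% in the mutant livers. The share of *Erbb3* was 68.1% ± 1.89 in WT and 28.9% ± 0.670 in mutant livers, and that of *Erbb2* 6.07% ± 0.570 and 0.442% ± 0.0419 (SD, n = 3). A share within a liver does not depend on a scaling factor for the whole liver, but a larger *Egfr* alone lowers the shares of the rest.

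**Figure D2:**
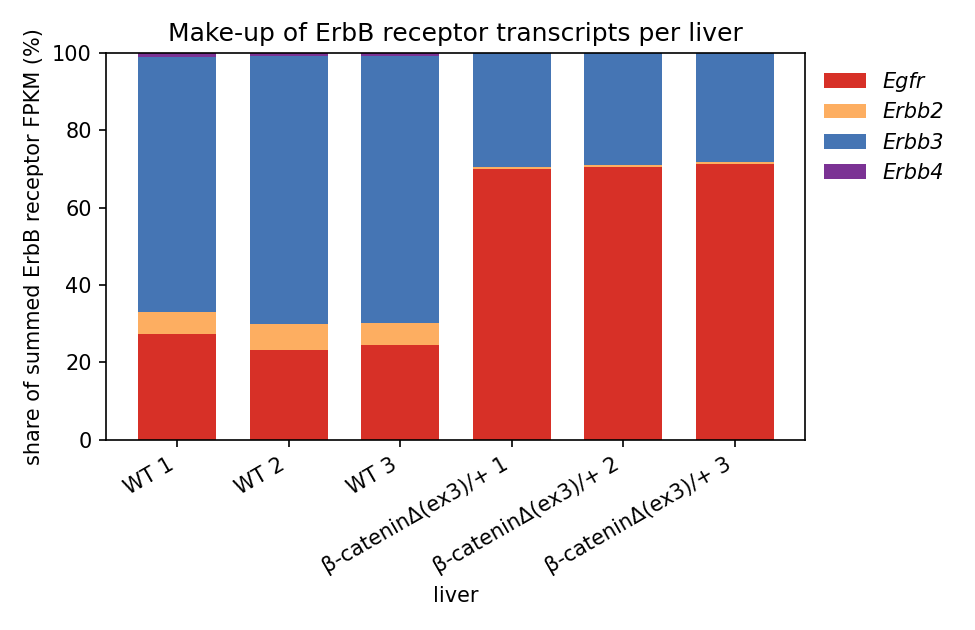
Share of each ErbB receptor in the summed FPKM of the 4 receptors (vertical axis, percent), 1 bar for each liver. *Erbb3* makes up 68.1% on average in WT livers and *Egfr* 70.6% in β-cateninΔ(ex3)/+ livers.

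Among the ligands, *Tgfa* (ENSMUSG00000029999, chr6:86195223-86275719, plus strand), which encodes TGFα, had the highest FPKM in every liver. Its level was 2.60, 2.51 and 2.76 FPKM in WT and 2.33, 2.32 and 2.11 FPKM in mutant livers. The mutant livers were all below the WT livers, by a small margin. The means were 2.62 ± 0.126 and 2.25 ± 0.127 FPKM (SD, n = 3), a log2 difference of -0.15 (standard error 0.060) that was -0.30 with median-ratio scaling and -0.31 with quantile normalization.

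*Hbegf* (ENSMUSG00000024486, chr18:36504927-36515805, minus strand) encodes heparin-binding EGF-like growth factor and had 0.391, 0.370 and 0.381 FPKM in WT and 0.222, 0.290 and 0.421 FPKM in mutant livers. One mutant liver was above the WT range and the other two below it. *Btc* (ENSMUSG00000082361, chr5:91357261-91402994, minus strand), which encodes betacellulin, had 0.204, 0.0990 and 0.163 FPKM in WT and 0.316, 0.259 and 0.347 FPKM in mutant livers. Here the mutant livers were all above the WT livers, with means of 0.155 ± 0.0528 and 0.307 ± 0.0449 FPKM (SD, n = 3), at levels under the limit for testing. *Egf* (ENSMUSG00000028017, chr3:129677565-129755316, minus strand) encodes the founding ligand of the family and had 0.0295, 0.0572 and 0.0584 FPKM in WT and 0.0273, 0.0411 and 0.00393 FPKM in mutant livers. The groups overlapped at levels near 0. *Areg* (ENSMUSG00000029378, chr5:91139599-91148432, plus strand), which encodes amphiregulin, was listed at 0 in all 6 livers.

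None of the 7 receptors and ligands of the family outside the 10 genes reached the limit for testing. *Nrg4*, a ligand of ERBB4, was the highest of them, with 0.372, 0.326 and 0.377 FPKM in WT and 0.635, 0.505 and 0.512 FPKM in mutant livers. Its mutant values were all above its WT values. *Nrg1*, which encodes a ligand of ERBB3 and ERBB4, had 0.0352, 0.0282 and 0.0244 FPKM in WT and 0.0256, 0.0336 and 0.0438 FPKM in mutant livers, and the groups overlapped. *Ereg* (epiregulin) was at 0 to 0.207 FPKM in WT and 0.0285 to 0.0884 FPKM in mutant livers, and *Nrg2* at 0 to 0.0244 and 0 to 0.0928 FPKM, both with overlap. *Epgn* (epigen) and *Nrg3* were listed at 0 in every liver. The 11 ligands together summed to 3.71, 3.59 and 3.77 FPKM in WT and 3.65, 3.48 and 3.58 FPKM in mutant livers. These sums overlapped, and *Tgfa* made up 71.0% ± 1.88 of them in WT and 63.2% ± 4.04 (SD, n = 3) in mutant livers. At these depths a ligand near 0 cannot be ordered against its neighbours.

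*Errfi1* (ENSMUSG00000028967, chr4:150853919-150868892, plus strand) encodes ERRFI1 (MIG6), which binds the kinase domain of active ErbB receptors, blocks it and is itself induced by the signal. It was the most abundant of the 10 genes, with 67.0, 71.2 and 69.7 FPKM in WT and 86.5, 81.5 and 84.9 FPKM in mutant livers. The mutant livers were all above the WT livers on the deposited scale. The means were 69.3 ± 2.13 and 84.3 ± 2.53 FPKM (SD, n = 3), a log2 difference of 0.28 (standard error 0.040) beside the median of 0.14 over all genes; it was 0.079 with median-ratio scaling and -0.0061 with quantile normalization, so its direction rests on the scaling. The ratio of *Errfi1* to *Egfr* within a liver, which no single scaling factor per liver touches, was 17.6, 19.05 and 19.98 in WT and 3.53, 3.27 and 3.40 in mutant livers. The inhibitor was above the receptor on the FPKM scale in every liver, by a smaller factor in the mutants.

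*Lrig1* (ENSMUSG00000030029, chr6:94604529-94700158, minus strand) encodes a membrane protein that binds ErbB receptors and promotes their breakdown. It had 3.05, 1.29 and 0.927 FPKM in WT and 4.01, 4.17 and 3.43 FPKM in mutant livers. The mutant livers were all above the WT livers, but WT replicate 1 lay nearer to them than to the other WT livers. The means were 1.76 ± 1.13 and 3.87 ± 0.391 FPKM (SD, n = 3), a log2 difference of 0.89 (standard error 0.27). It ranged from 0.67 to 1.21 when 1 liver was left out and passed a fold of 2 without WT replicate 1, as it did with a pseudocount of 0.1, at 1.26. The difference was 0.75 and 0.74 with median-ratio scaling and quantile normalization. *Lrig1* overlaps *Slc25a26* on the other strand by 144 bases, and the latter had 1.16 to 1.297 FPKM in WT and 1.08 to 1.297 FPKM in mutant livers.

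Genes known to act with the receptors were then compared, by lists set out by role. With the same limma test adjusted over all 13243 genes, 4 of 64 pathway genes were higher and 2 lower past both thresholds, beside 8.17% and 4.52% of all genes tested, and 21 further genes of the lists were below the limit for testing. Their median log2 fold change was 0.16, beside 0.14 over all genes tested. With median-ratio scaling or with quantile normalization 2 were higher and 3 lower.

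**Figure D3:**
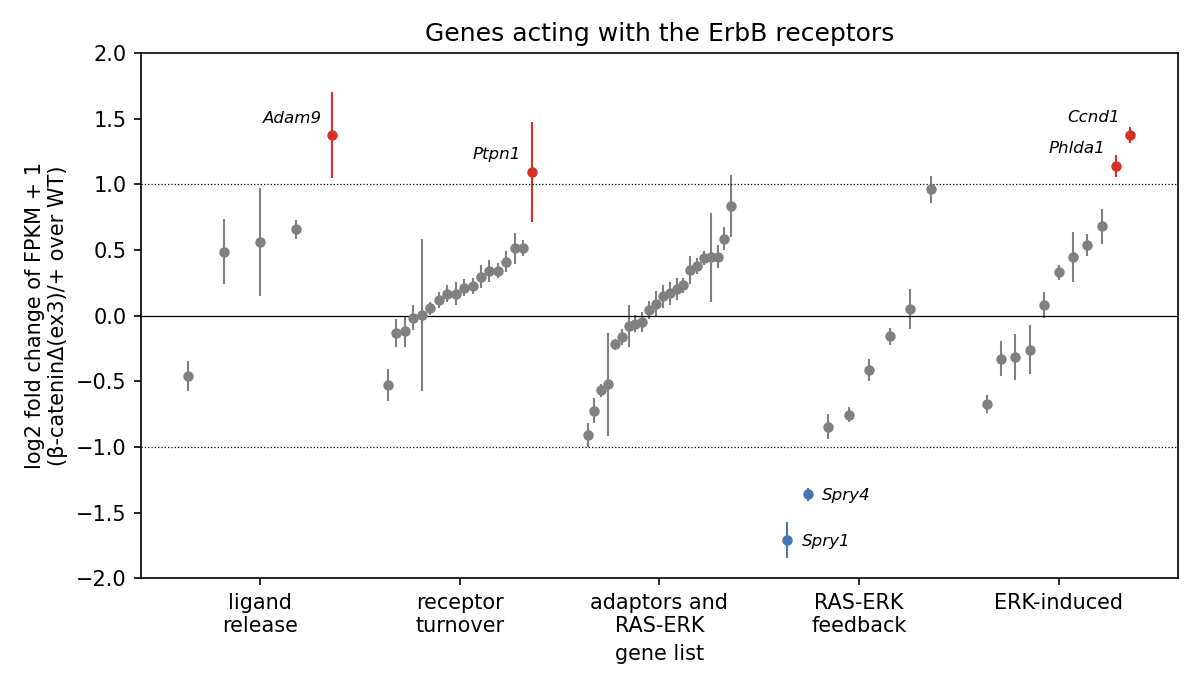
Log2 fold change of FPKM + 1 (β-cateninΔ(ex3)/+ over WT) for the 64 pathway genes tested, by list; points are limma estimates from 3 livers a group, bars their standard errors, and dotted lines a fold of 2. Red and blue mark the 4 genes higher and the 2 genes lower past both thresholds, *Spry1* lowest at -1.71; *Phlda1* and *Ptpn1* were not past both after either scaling.

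Of the proteases and pseudoproteases that release the ligands, 1 of 5 tested was higher and 0 lower, with a median log2 fold change of 0.56. *Adam9*, a membrane metalloprotease, had 5.09, 5.10 and 1.67 FPKM in WT and 10.5, 11.8 and 10.7 FPKM in mutant livers, with a log2 fold change of 1.38 ± 0.33 (SE) and a limma adjusted p of 0.0136. All mutant livers were above all WT livers, and WT replicate 3 was far below the other two; without it the log2 fold change was 0.98, under a fold of 2. *Adam17*, the protease that releases TGFα, amphiregulin and HB-EGF, is named after its values were seen; it had 1.85, 2.22 and 1.81 FPKM in WT and 3.65, 3.51 and 3.83 FPKM in mutant livers, with a log2 fold change of 0.66 ± 0.073 (SE) and a limma adjusted p of 0.00055. At an adjusted p under 0.05 and any fold 2 genes of the list were higher, these 2, and 1 was lower, where 37.4% of all genes tested were higher and 19.6% lower. The lower one, also named after its values were seen, was *Rhbdf1*, which encodes an inactive rhomboid that carries ADAM17 to the cell surface. It had 2.31, 1.96 and 2.36 FPKM in WT and 1.52, 1.51 and 0.993 FPKM in mutant livers (log2 fold change -0.46, limma adjusted p = 0.0157). Without WT replicate 1 the log2 fold change of *Rhbdf1* was -0.44 and its limma adjusted p was 0.0510, past the threshold of 0.05. *Adam12*, named likewise and below the limit for testing, was at 0.541 to 0.612 FPKM in WT and 0.0410 to 0.122 FPKM in mutant livers. The mutant livers lay below the WT livers for both genes.

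Among genes that inhibit, ubiquitinate, internalize or dephosphorylate the receptors, 1 of 18 tested was higher and 0 lower, with a median of 0.19. *Ptpn1*, the phosphatase PTP1B, which acts on EGFR after its uptake, had 4.50, 4.02 and 1.02 FPKM in WT and 7.48, 7.08 and 6.94 FPKM in mutant livers. All mutant livers were above all WT livers, and WT replicate 3 was again the low one. Its log2 fold change of 1.10 ± 0.38 (SE), with a limma adjusted p of 0.0498, was just past the threshold, and it was 0.64 without WT replicate 3. At an adjusted p under 0.05 and any fold, 9 of the 18 were higher and 1 lower, beside 37.4% and 19.6% of all genes tested. The higher ones numbered 3 with median-ratio scaling and 2 with quantile normalization, where 26.6% and 25.1% of all genes tested were higher. The lower one, named after its values were seen, was *Cblb*, a ubiquitin ligase of the CBL family, with 1.23, 1.12 and 1.0005 FPKM in WT and 0.603, 0.596 and 0.238 FPKM in mutant livers (log2 fold change -0.53, limma adjusted p = 0.0109). Its groups did not overlap, and it reached the limit for testing through the WT livers alone.

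Of the adaptors and members of the RAS-ERK cascade, 0 of 22 tested were past both limma thresholds in either direction, with 12 at an unadjusted p under 0.05 and 11 at an adjusted one, 7 of these higher and 4 lower. Over all genes tested 62.3% were at an unadjusted p under 0.05 and 57.0% at an adjusted one, 37.4% higher and 19.6% lower. With median-ratio scaling 5 of the 22 were higher and 6 lower at an adjusted p under 0.05, and with quantile normalization 4 and 6. The median was 0.12. Chosen after their values were seen, *Mapk3* (ERK1) had 29.3, 27.1 and 27.2 FPKM in WT and 18.8, 18.5 and 17.98 FPKM in mutant livers, and *Gab1*, a docking protein that binds the receptors through GRB2, had 3.79, 3.55 and 3.47 FPKM in WT and 1.85, 2.10 and 1.45 FPKM in mutant livers. Both were lower in every mutant liver than in any WT liver, with log2 fold changes of -0.57 (limma adjusted p = 0.000137) and -0.72 (limma adjusted p = 0.0012); *Mapk3* was at -0.87 with quantile normalization. The gene with the largest absolute log2 fold change of the list, the adaptor *Nck2*, named likewise, was lower as well, with 2.28, 1.80 and 2.41 FPKM in WT and 0.706, 0.603 and 0.720 FPKM in mutant livers (log2 fold change -0.91, limma adjusted p = 0.000348), and it was past a fold of 2 at -1.02 with either scaling. Of the 7 higher genes, 2 are named, again after their values were seen. *Plcg1* (phospholipase C gamma) had 1.35, 1.56 and 1.52 FPKM in WT and 5.47, 2.88 and 2.44 FPKM in mutant livers (log2 fold change 0.84, limma adjusted p = 0.0244). *Map2k1* (MEK1) had 8.39, 8.32 and 7.17 FPKM and 12.99, 11.2 and 13.2 FPKM (log2 fold change 0.59, limma adjusted p = 0.00189, and 0.40 and 0.32 with median-ratio scaling and quantile normalization). The mutant livers were above the WT livers for both, and β-cateninΔ(ex3)/+ replicate 1 was far above the other two for *Plcg1*; without it the log2 fold change was 0.56, and without any 1 WT liver the limma adjusted p was 0.0571 to 0.0699.

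The feedback inhibitors of RAS-ERK signalling had 2 lower and 0 higher of 8 tested, with a median of -0.58. *Spry1*, which encodes a Sprouty protein that dampens signalling from receptor kinases to RAS, had 6.43, 4.97 and 5.94 FPKM in WT and 0.876, 0.907 and 1.46 FPKM in mutant livers, with a log2 fold change of -1.71 ± 0.14 (SE) and a limma adjusted p of 0.000128. *Spry4*, another Sprouty gene, had 4.31, 4.28 and 4.28 FPKM in WT and 1.09, 1.05 and 1.05 FPKM in mutant livers, with a log2 fold change of -1.36 ± 0.049 (SE) and a limma adjusted p of 4.2e-06. Neither gene's groups overlapped. At an adjusted p under 0.05 and any fold, 5 of the 8 were lower and 1 higher, or 6 and 1 with either scaling, beside 19.6% lower and 37.4% higher of all genes tested. Besides *Spry1* and *Spry4*, and named after their values were seen, the lower ones were *Spry2* (log2 fold change -0.42, limma adjusted p = 0.00654), *Spred1* (-0.75, limma adjusted p = 0.000103) and *Dusp5*, and the higher one was *Dusp6*. The phosphatase genes *Dusp6* and *Dusp5*, both induced by ERK, thus differed in sign. *Dusp6* had 7.45, 7.12 and 5.92 FPKM in WT and 13.2, 13.8 and 15.7 FPKM in mutant livers (log2 fold change 0.96, limma adjusted p = 0.000398), and *Dusp5* had 2.53, 1.84 and 2.23 FPKM and 0.703, 0.831 and 0.785 FPKM (log2 fold change -0.85, limma adjusted p = 0.000542). Both missed a fold of 2 on this scale, and both signs held with either scaling.

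Of the immediate early and ERK-induced genes, 2 of 11 tested were higher and 0 lower, with a median of 0.33. *Ccnd1*, cyclin D1, had 12.3, 11.8 and 13.5 FPKM in WT and 34.9, 32.5 and 34.9 FPKM in mutant livers, with a log2 fold change of 1.38 ± 0.062 (SE) and a limma adjusted p of 1.1e-05. *Phlda1* had 20.9, 17.3 and 20.2 FPKM in WT and 44.6, 41.5 and 45.9 FPKM in mutant livers, with a log2 fold change of 1.14 ± 0.081 (SE) and a limma adjusted p of 7.74e-05, and 0.95 and 0.87 with median-ratio scaling and quantile normalization. All mutant livers were above all WT livers for both genes. *Egr1*, an immediate early transcription factor named after its values were seen, was at 7.11, 6.68 and 7.19 FPKM in WT and 4.44, 3.71 and 3.94 FPKM in mutant livers, a log2 fold change of -0.67 (limma adjusted p = 0.000395). It was the 1 lower gene at an adjusted p under 0.05 at any fold, beside 5 higher, out of 11 tested; the shares over all genes tested were 19.6% lower and 37.4% higher. With either scaling 2 were lower and 5 higher. Besides *Ccnd1* and *Phlda1* these were, named after their values were seen, *Jun* (log2 fold change 0.68, limma adjusted p = 0.0056), *Zfp36* (0.54, limma adjusted p = 0.00216) and *Fosl2* (0.33, limma adjusted p = 0.00362). Their signs held with either scaling, *Zfp36* at 0.35 and 0.28. Transcript levels do not measure receptor or ERK phosphorylation.

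The 5 genes whose profile over the 6 livers was nearest that of *Egfr*, by the root mean square difference of log2(FPKM + 1) after centring each gene, were *Fmo5*, *Cyp1a2*, *Acacb*, *Cyp4v3* and *Insig1*, with differences of 0.019, 0.038, 0.046, 0.048 and 0.053. *Fmo5*, a flavin monooxygenase, had 21.2, 21.5 and 19.9 FPKM in WT and 118.4, 118.0 and 117.6 FPKM in mutant livers, and *Cyp1a2*, a pericentral cytochrome P450, 64.3, 66.8 and 64.4 FPKM and 372.1, 358.6 and 369.0 FPKM. *Acacb*, an acetyl-CoA carboxylase, rose from 0.213 ± 0.0352 to 5.63 ± 0.406 FPKM, *Cyp4v3* from 23.7 ± 0.955 to 127.3 ± 1.58 FPKM (SD, n = 3), and *Insig1*, which retains sterol sensors in the endoplasmic reticulum, from 12.4 to 12.7 FPKM over the WT livers to 75.5 to 79.0 FPKM over the mutant livers. The likeness of *Acacb* rests on the pseudocount of 1, since with a pseudocount of 0.1 its log2 fold change was well above the 2.72 of *Egfr*, and it reached the limit for testing through the mutants alone. Each of these profiles has a low WT and a high mutant group, which any gene with a like log2 fold change on this scale and a small spread would share.

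Markers of hepatocytes and of other cells of the liver were counted with the same thresholds, past which 8.17% of all genes tested were higher and 4.52% lower. Of 8 hepatocyte markers 1 was higher (*Hnf4a*, at less than a fold of 2 with either scaling) and 2 lower (*Apoa1* and *Ttr*), and their sum was 77710 to 81233 FPKM in WT and 38790 to 39078 FPKM in mutant livers, with *Alb* the most abundant in both; no marker was at 0. Pericentral genes and β-catenin targets had 7 of 9 higher and 0 lower (sums 1734 to 1945 and 3095 to 3133 FPKM; *Cyp2e1* most abundant, *Oat* and *Slc1a2* with the largest log2 fold changes of 5.19 and 4.06), and periportal genes 4 of 8 higher and 2 lower (959.1 to 983.9 and 1507 to 1561 FPKM; *Pck1*, one of the lower ones, most abundant in WT and *Ass1* in the mutants, *Cyp2f2* with 3.60). Of 5 cholangiocyte markers tested out of 7, 1 was lower (*Spp1*, the most abundant), with sums of 48.1 to 51.1 and 24.9 to 25.3 FPKM. Stellate cell markers had 4 of 7 lower (61.7 to 64.1 and 22.6 to 25.0 FPKM; *Dcn* most abundant, *Reln* with -2.27), endothelial markers 1 of 6 lower (*Stab2*; 68.6 to 69.9 and 49.3 to 50.5 FPKM; *Clec4g* most abundant), and neither list had a gene higher. Kupffer and myeloid markers had 3 of 7 higher and 1 lower (214.9 to 222.0 and 489.1 to 496.6 FPKM; *Cd5l* most abundant, *Marco* the lower one, and *Csf1r*, one of the higher, at less than a fold of 2 with either scaling). Erythroid markers had 5 of 8 lower and 0 higher (3307 to 3650 and 1810 to 1873 FPKM; *Hba-a1* most abundant in WT and *Hba-a2* in the mutants, near-identical copies, *Slc4a1* with the lowest log2 fold change), and cell cycle genes 2 of 8 higher (*Plk1* and *Ccnb1*) and 0 lower (17.9 to 20.4 and 37.2 to 38.6 FPKM; *Ccnb2* with the highest mean in both groups). Of the genes named here, *Slc1a2* and *Slc4a1* reached the limit for testing through 1 group alone. At a limma adjusted p under 0.05 and any fold, all 8 cell cycle genes were higher. All 6 endothelial, all 7 stellate and 7 of 8 erythroid markers were lower and 0 higher. Higher and lower were 2 and 5 of the hepatocyte markers, 8 and 1 of the pericentral and 5 and 2 of the periportal genes. They were 6 and 1 of the myeloid and 0 and 3 of the cholangiocyte markers. Over all genes tested 37.4% were higher and 19.6% lower. The part of these differences in the levels of the ErbB genes was not tested.

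Since *Egfr* and *Errfi1* were the receptor and the inhibitor with the highest levels in β-cateninΔ(ex3)/+ livers, the 250 bases before their starts were read for the core letters bound by TCF/LEF factors, the DNA-binding partners of β-catenin. RefSeq (GRCm38.p6) gave 10 such windows for 8 of the 10 genes, all but *Erbb3* and *Hbegf*. CTTTGA or CTTTGT was searched on both strands; 13.8% and 16.5% of all 32851 windows of this length held them, and 27.6% held at least 1 of both. Of the 10 windows 1 had a match, the earlier of 2 listed for *Errfi1*, with CTTTGA on the plus strand at chr4:150853628-150853633 and CTTTGT on the minus strand at chr4:150853692-150853697. The window of *Egfr* (chr11:16751953-16752202, plus strand, 60.8% G or C) held none, and that of *Errfi1* (chr4:150853546-150853795, plus strand, 38.0% G or C) is shown with both matches in capitals, the second as its reverse complement. A match is letters only and is no measure of binding, and no match speaks of these windows alone.
Egfr: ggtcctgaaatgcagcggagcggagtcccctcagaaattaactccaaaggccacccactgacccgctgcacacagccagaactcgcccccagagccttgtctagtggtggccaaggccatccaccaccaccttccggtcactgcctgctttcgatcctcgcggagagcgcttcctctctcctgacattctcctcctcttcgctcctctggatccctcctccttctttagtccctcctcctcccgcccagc
Errfi1: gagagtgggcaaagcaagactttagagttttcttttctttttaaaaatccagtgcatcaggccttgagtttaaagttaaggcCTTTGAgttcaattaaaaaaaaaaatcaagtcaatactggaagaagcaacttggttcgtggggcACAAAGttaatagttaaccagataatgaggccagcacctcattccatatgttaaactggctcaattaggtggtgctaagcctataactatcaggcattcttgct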

How the data were processed

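Whole-liver RNA of 3 WT and 3 β-cateninΔ(ex3)/+ mice was sequenced by the authors from poly(A)-selected, strand-marked paired-end libraries, 1 per liver. The values the authors deposited are FPKM per gene, in 1 table of 31950 genes. The submitters' processing notes name cutadapt 1.9, HISAT2 2.0.4 and StringTie 1.3.4d, and DESeq2 and edgeR as the authors' tools, which need counts and were not run here. Of the genes, 28911 have the start and end of GENCODE M21 (GRCm38), which includes the 10 described. Columns were matched to livers by name and groups taken from the sample labels.

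From the FPKM, log2(FPKM + 1) was fitted for the 13243 genes with a mean of at least 0.5 FPKM with limma 3.58.1 in R 4.3.3 (lmFit, eBayes with a trend, Benjamini-Hochberg adjustment), with differences called at an adjusted p under 0.05 and a fold of at least 2. Standard errors are those of this fit. The fit was tested on simulated data. Other values were computed in Python 3.11.15 (pandas 2.3.3, numpy 2.4.6) and drawn with matplotlib 3.10.9. Among the 13243 genes tested, livers of a group had no gene with identical values above 0. The median coefficient of variation over 1854 genes with a mean of at least 20 FPKM was 4.50% in WT and 3.31% in mutant livers.

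Depth was estimated from 6284 genes with 1 exon, as the number of fragments at which the largest share of low values fell on steps of 1 read of a pair. Between 33.5% and 44.4% of them lay within 0.02 reads of a step, against 4% by chance, so whole reads were not recovered and no count test was made. A gene near 0 FPKM rests on few reads.

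The members and lists were chosen with earlier results of these data known. Named were the 10 genes, all other ErbB receptors and ligands, *Ctnnb1* and *Glul*, and the 5 genes nearest *Egfr*. Of each pathway list, up to 4 genes past both thresholds with the largest log2 fold change were named. Of each marker list, the most abundant gene and a selection of others were named. These others were not always the genes with the largest log2 fold change. The genes marked in the text were added after their values were seen. One marker list is not reported here. Alternatives were a pseudocount of 0.1, no filter, a mean of at least 1 FPKM, quantile normalization, median-ratio scaling, a block for the replicate number, leaving out each liver, eBayes with no trend, and the adjusted p alone.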

Additional observations from a re-analysis of the deposited data

How the results depend on the processing

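The genes differentially expressed numbered 1680 (1082 higher, 598 lower), and 2705 (1706 and 999) with a pseudocount of 0.1 or 7551 (4952 and 2599) by the adjusted p alone. Leaving out 1 liver gave 1642 to 1703. The share of calls that were higher was 64.4%, and 52.4% with median-ratio scaling or 49.5% with quantile normalization, with the median over all genes shifted by -0.14 and -0.16 (log2).

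The 6 pathway genes past both thresholds (4 higher, 2 lower) became 11 with a pseudocount of 0.1, of which 6 were lower, and 36 (24 higher, 12 lower) by the adjusted p alone. With either scaling 2 were higher and 3 lower. Those higher numbered 2 to 5 when 1 liver was left out, the lowest without WT replicate 3. *Ptpn1* lost its call in 10 of its 13 alternatives, with adjusted p from 0.00163 to 0.117 over all 13. *Phlda1* lost it with either scaling and *Adam9* without WT replicate 3; *Ccnd1*, *Spry1* and *Spry4* kept theirs in all alternatives run. Among the other genes named, *Dusp6* passed a fold of 2 without WT replicate 1 (1.02), without β-cateninΔ(ex3)/+ replicate 1 (1.01) and with a pseudocount of 0.1 (1.05), which also moved *Dusp5* (-1.39), *Spred1*, *Cblb*, *Nck2*, *Plcg1* and *Epcam* past it, and took *Fosl2* to 0.68, *Rhbdf1* to -0.70 and *Spry2* to -0.82. *Nck2* passed it with either scaling and *Plcg1* without β-cateninΔ(ex3)/+ replicate 3. *Hnf4a* and *Csf1r* lost their calls with either scaling, with which *Dcn* gained one, as did *Lyve1* with quantile normalization and *Apob* without β-cateninΔ(ex3)/+ replicate 3.

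For *Egfr* the log2 difference was 2.72 with a pseudocount of 0.1, 2.29 with median-ratio scaling and 2.22 with quantile normalization. For *Erbb2* it was -1.96 with the smaller pseudocount and -0.80 with quantile normalization. *Tgfa* had -0.21 with that pseudocount and -0.30 and -0.31 with the scalings, *Erbb3* -0.17 and -0.25, and *Errfi1* 0.079 and -0.0061. In the remaining 65 of 77 comparisons a member moved by less than 1 SD between replicates. Among them were *Lrig1* at 1.26 with a pseudocount of 0.1 and at 1.21 without WT replicate 1, both past a fold of 2. The changes of filter, eBayes with no trend and the replicate block cannot change a log2 difference. Their comparisons are among the 65 and are no measure of stability. *Areg*, at 0, and the other 3 ligands below the filter have no value under most alternatives. *Erbb2* falls below the filter at a mean of at least 1 FPKM and without any 1 WT liver, so these fits give no value for it; its plain log2 difference, taken without the filter, was -0.76 to -0.65 when 1 liver was left out. Why values moved was not tested.

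The replicate numbers pair nothing stated in the labels. With the replicate block 1673 genes were differentially expressed, 6 of them pathway genes. The log2 difference of *Egfr*, 2.47, is fixed by the design whether or not the block is used, so nothing is drawn from it. Deviations of livers with the same number correlated at 0.035, 0.020 and -0.00085 across genes, and 2 of 3 WT livers correlated best with their own number.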

Other observations

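Single livers departed from their group for some genes. A gene was counted where 1 liver lay at least 2-fold below or above both others of its group, those 2 being within 1.25-fold of each other at a mean of at least 1 FPKM, a rule chosen after the values were seen. Between 77 and 118 of 13243 genes had 1 liver below in this way, and between 13 and 25 had it above. Among the pathway genes these were *Adam9*, *Ptpn1* and *Grb2* in WT replicate 3, *Nras* in β-cateninΔ(ex3)/+ replicate 1, and *Adam10*, *Rhbdf2* and *Ptprj* in β-cateninΔ(ex3)/+ replicate 3, all below. *Ptprj*, a receptor phosphatase that acts on EGFR, had 2.63, 3.23 and 2.58 FPKM in WT and 5.24, 5.19 and 0.449 FPKM in mutant livers. *Nras* had 4.87, 4.96 and 5.04 FPKM in WT and 1.15, 4.61 and 4.87 FPKM in mutant livers.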
